A study of Mus musculus with 6 samples.

Results

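The 42 genes described here mark the cells of blood vessels, and 29 of them mark endothelial cells while 13 mark mural cells, that is pericytes and smooth muscle cells. They were chosen as a list of vessel cell markers, and all 42 were found among the 26431 genes of the deposited table, 41 by their symbol and 1, Ackr1, by its RefSeq transcript under the older symbol Darc. The samples were tibialis anterior (TA) muscles of female C57BL/6 mice, 8 to 10 weeks old, with 1 library per mouse. At day 3 after an injection of about 50 μl of 10 μM cardiotoxin (CTX), a snake venom toxin that destroys muscle fibres, 3 muscles were taken, and 3 more came from untreated, uninjured mice, so that the needle and the saline had no control of their own. Values are RPKM, read numbers divided by transcript length and by all mapped reads, of which each library had 34202861 to 36129090 at day 3 and 38737746 to 43062684 in uninjured muscle. Calls of higher or lower needed both an adjusted p under 0.05 (limma, Benjamini-Hochberg over all tested genes) and 2-fold or more between the groups. Log2 fold changes are on the log2(RPKM + 0.1) scale, day 3 over uninjured, and 95% intervals are not adjusted.

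Endothelial cells line every vessel. Their identity is kept by ETS factors such as Erg and Fli1 and by the SoxF factors Sox7, Sox17 and Sox18, and they are joined to each other by VE-cadherin and claudin-5. Mural cells wrap them: pericytes cover capillaries and are recruited through endothelial PDGF-B and its receptor, and smooth muscle cells surround arterioles with a contractile apparatus of their own. When vessels are activated or grow, endothelial cells are known to release angiopoietin-2, to make apelin and to display selectins that catch passing leukocytes, which makes it possible to look at resting and activated markers side by side in injured muscle.

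In whole muscle at day 3 the apelin gene Apln, the angiopoietin gene Angpt2 and the selectin gene Selp rose, and the channel genes Kcnj8 and Abcc9 fell. VE-cadherin (Cdh5), the receptor gene Tek and the pericyte gene Rgs5 differed from uninjured muscle by less than 2-fold. Of the 29 endothelial members 27 were tested, of which 10 were called higher, none lower and 17 neither. Of the 13 mural members 12 were tested, of which 3 were called higher, 2 lower and 7 neither. The background is large, since 60.5% of the 14446 tested genes were called higher and 7.96% lower at day 3. Every count of calls given below has to be read beside these shares. How the endothelial members stand against it depends on whether genes of low values are tested. With no filter 11 of 29 were called higher, against 38.3% of the 26431 genes then tested. The median log2 fold change was 0.67 over the tested endothelial members and 0.04 over the tested mural members, against 1.35 over all tested genes, and 8 of 27 endothelial and 1 of 12 mural members lay above that median of all genes. With no filter, which adds the genes with a mean RPKM under 0.5, the median of all genes was 0.53. The endothelial median was 0.14 above it and the mural median 0.59 below it. With a mean of at least 2 RPKM the median of all genes was 1.33. The endothelial median minus it was then -0.69 and the mural median minus it -1.67. In a bulk sample fewer cells of a type and less RNA per cell cannot be told apart.

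**Figure D1:**
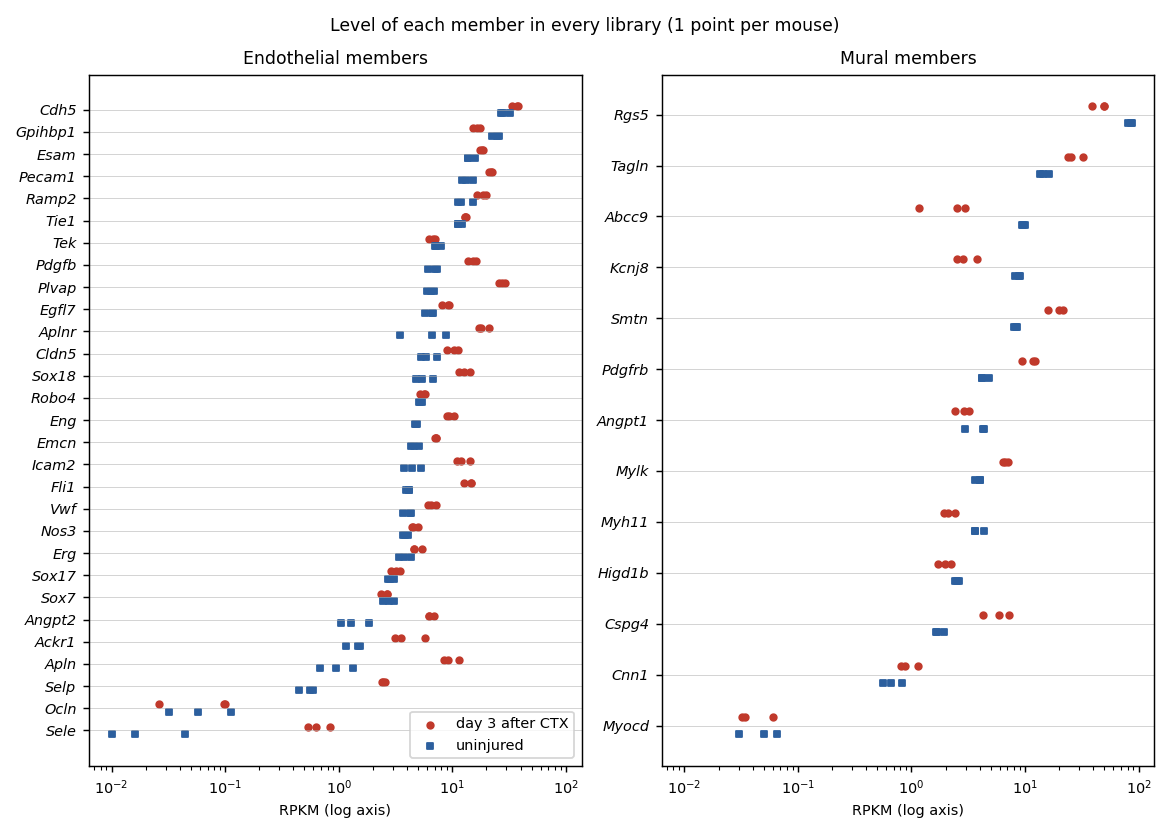
RPKM (log axis) of every member in the 3 day 3 libraries (circles) and the 3 uninjured libraries (squares), endothelial members on the left and mural members on the right, ordered by their uninjured level. Apln, Angpt2, Plvap and Sele at day 3 lie well to the right of uninjured muscle, Abcc9, Kcnj8 and Rgs5 lie to the left, and the points of Robo4, Sox7 and Sox17 overlap.

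The scaling of the libraries decides the sign of many of these changes. Mitochondrial sequences held 4.77 to 6.62% of the reads at day 3 and 22.1 to 24.7% in uninjured muscle, and ERCC spike-ins, synthetic RNAs added to each sample, held 1.44 to 1.64% and 1.06 to 1.20%. Over the deposited values and 5 other scalings (mitochondrial rows left out, ERCC spike-ins, median of ratios, quantile normalization and ribosomal protein genes) the median of all genes moved between -0.71 and 1.35. Of the 39 tested members, 12 kept their sign under all 6 and the other 27 did not. Angpt2, Apln and Selp stayed above 0, and Tek, Angpt1, Gpihbp1, Sox7, Rgs5, Kcnj8, Abcc9, Higd1b and Myh11 stayed below it. Of the calls, those of Apln (higher) and of Kcnj8 and Abcc9 (lower) held under all 6. Each of the 5 other scalings lowered the change of every tested member. A member below 0 as deposited could therefore only stay below it, so a kept negative sign or lower call adds no support. Relative to the median of all genes, the endothelial median lay between -0.73 and -0.50 under the 6 scalings. The mural median lay between -1.53 and -1.22 on that measure. The 4 scalings by a factor shift all genes nearly alike, so these differences could hardly move under them. With quantile normalization, which is no such factor, they were -0.50 and -1.53. Every level and every rise or fall named below is as deposited.

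**Figure D2:**
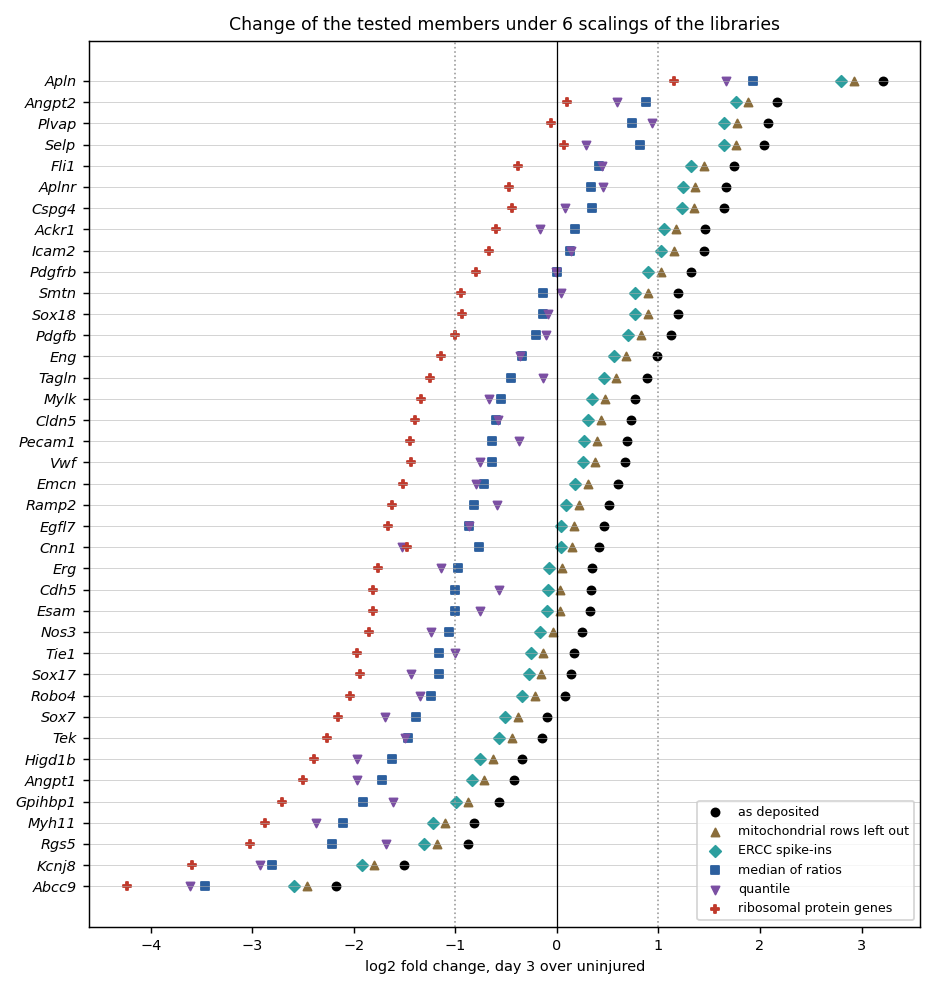
Log2 fold change of the 39 tested members, day 3 over uninjured, under the deposited values and 5 other scalings of the libraries, with dotted lines at a change of 2-fold. Apln stays above 1 and Kcnj8 and Abcc9 stay below -1 under all of them, whereas 27 members change sign.

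Promoters of 5 members are shown here because they belong to genes at both ends of the range: the apelin gene Apln, the selectin genes Sele and Selp, and the channel genes Kcnj8 and Abcc9. Each line holds the 250 bases before the start of the gene in RefSeq (GRCm38.p6), read on the gene's own strand, with matches to the searched motifs in capitals. Apln lies on the minus strand (chrX:48034854-48035103), Sele (chr1:164047984-164048233) and Selp (chr1:164115014-164115263) on the plus strand, and Kcnj8 (chr6:142571615-142571864) and Abcc9 (chr6:142702275-142702524) on the minus strand as neighbouring protein-coding genes.
Apln: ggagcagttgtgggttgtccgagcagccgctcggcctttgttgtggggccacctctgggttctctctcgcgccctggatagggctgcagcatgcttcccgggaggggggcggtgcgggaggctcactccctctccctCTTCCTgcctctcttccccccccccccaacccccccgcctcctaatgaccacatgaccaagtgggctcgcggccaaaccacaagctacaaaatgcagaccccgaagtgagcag
Sele: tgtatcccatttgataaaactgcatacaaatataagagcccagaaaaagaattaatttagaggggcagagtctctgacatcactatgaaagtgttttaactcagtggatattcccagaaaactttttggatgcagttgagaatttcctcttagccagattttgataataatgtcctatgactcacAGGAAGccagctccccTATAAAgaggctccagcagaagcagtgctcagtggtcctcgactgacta
Selp: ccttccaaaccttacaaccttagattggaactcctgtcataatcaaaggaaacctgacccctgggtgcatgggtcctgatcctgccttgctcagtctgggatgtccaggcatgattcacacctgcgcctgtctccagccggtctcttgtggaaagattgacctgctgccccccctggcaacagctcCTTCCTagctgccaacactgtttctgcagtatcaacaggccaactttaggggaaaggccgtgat
Kcnj8: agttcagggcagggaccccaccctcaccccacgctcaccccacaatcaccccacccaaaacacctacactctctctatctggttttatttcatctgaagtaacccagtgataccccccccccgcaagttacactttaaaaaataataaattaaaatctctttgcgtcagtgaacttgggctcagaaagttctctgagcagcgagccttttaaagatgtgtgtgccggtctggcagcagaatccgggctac
Abcc9: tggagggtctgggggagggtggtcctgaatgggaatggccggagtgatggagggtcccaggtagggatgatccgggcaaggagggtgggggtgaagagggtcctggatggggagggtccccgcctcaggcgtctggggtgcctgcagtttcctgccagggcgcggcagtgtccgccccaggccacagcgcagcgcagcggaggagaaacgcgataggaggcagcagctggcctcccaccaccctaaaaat

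Both strands were searched for the ETS core written AGGAAG, for AGATAA as the motif bound by the Gata family, for the SOX motif with the letters AACAAT, for the hypoxia response core in the form ACGTG, for a TATA box spelled TATAAA, and for the CArG box and the kappaB motif by name. No 2 of these matches overlapped in the printed windows, and the RefSeq promoter table used here was matched by 20 members. In the printed windows the capitals are 1 AGGAAG in each of Apln (minus strand), Sele (plus strand) and Selp (minus strand), and 1 TATAAA in Sele, the last base of which lies 44 bases before the start. The Kcnj8 and Abcc9 windows held none of the 7 motifs in the forms searched. AGGAAG stood in windows of 10 of 13 endothelial members and of 0 of 7 mural members, in 11 of 18 endothelial windows, against 29.5% of all 32851 windows of the same length. None of the member windows held the searched form of the CArG box, found in 1.47% of all windows, or of the kappaB motif, found in 3.90%. Each motif was searched only in a strict form, so shorter or looser sites, kappaB and ETS sites included, were not counted. A match is only a run of letters, and a window without one says nothing of the factor.

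Of the angiopoietin ligands, Angpt2 rose and Angpt1 did not pass the test. Angpt2, the ligand that endothelial cells store and release on activation, had 6.28, 6.26 and 6.93 RPKM at day 3, against 1.87, 1.29 and 1.04 RPKM in uninjured muscle. The groups did not overlap, and the log2 fold change was 2.17 (standard error 0.19, adjusted p = 1.85e-05). Angpt2 was not called with median-of-ratios (0.88), quantile (0.59) or ribosomal protein scaling (0.098). Angpt1, the agonist made by mural and other mesenchymal cells, had 3.22, 2.91 and 2.42 RPKM at day 3, against 4.29, 2.98 and 4.39 RPKM in uninjured muscle. These groups overlapped, and the change of -0.42 did not pass (adjusted p = 0.0509, unadjusted 95% interval -0.84 to -0.01). Tek, the receptor of both ligands, had 6.78, 7.02 and 6.28 RPKM at day 3 and 7.95, 7.10 and 7.17 RPKM in uninjured muscle, a change of -0.14 that did not pass (95% interval -0.33 to 0.04). Tie1, its co-receptor, had 13.2, 12.8 and 13.1 RPKM at day 3 and 12.3, 11.3 and 11.3 RPKM in uninjured muscle, a change of 0.17 that passed the p threshold (adjusted p = 0.0354) but not 2-fold.

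A ratio of 2 genes within a library does not move with a factor that scales the whole library. Of 10 such pairs compared, 9 did not overlap between the groups. The share among other pairs of genes was not computed, so that count is a description of these pairs. With 3 libraries against 3 the exact two-sided permutation test can give no p below 0.1, which those 9 reached (0.111 after adjustment over the pairs). The Angpt2 to Angpt1 ratio was 1.95, 2.15 and 2.86 at day 3, against 0.435, 0.434 and 0.237 in uninjured muscle, so the more abundant ligand was Angpt2 at day 3 and Angpt1 without injury. The difference of log2 ratios was 2.59. The Tek to Tie1 ratio, at 0.513, 0.547 and 0.480 at day 3 and 0.648, 0.630 and 0.632 in uninjured muscle, was lower at day 3 by a much smaller step (difference of log2 ratios -0.31).

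**Figure D3:**
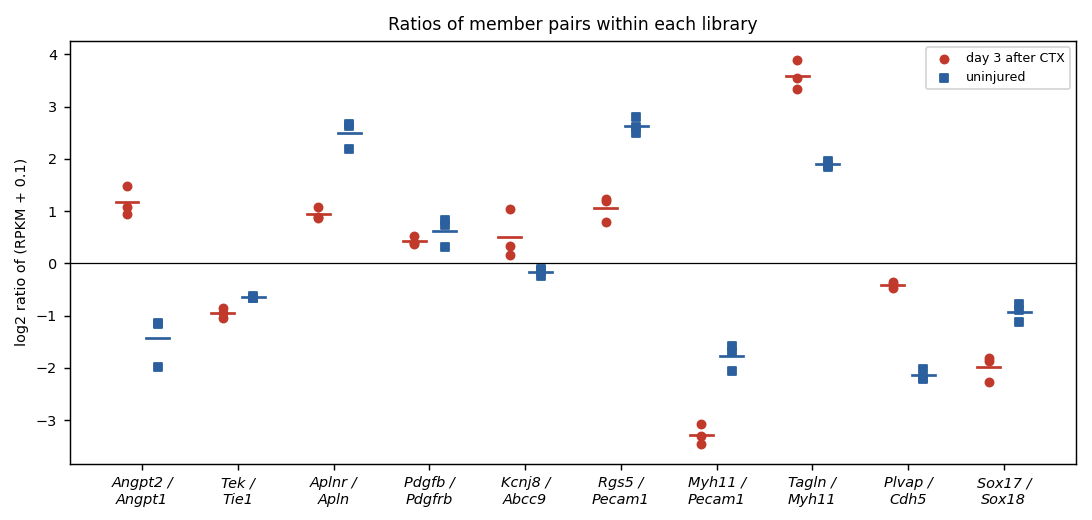
Log2 ratio of (RPKM + 0.1) of 10 member pairs within each library, with points for single mice and lines for the group means, day 3 (circles) left of uninjured (squares) in each pair. Pdgfb over Pdgfrb is the pair whose groups overlap, and Angpt2 over Angpt1 lies above 0 at day 3 and below 0 in uninjured muscle.

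Apln had the largest change among the tested endothelial members. Apln, a secreted peptide of growing vessel tips, had 9.26, 8.44 and 11.5 RPKM at day 3, against 1.34, 0.682 and 0.951 RPKM in uninjured muscle. It rose by 3.21 on the log2 scale (standard error 0.23, adjusted p = 5.42e-06), and 86.1% of tested genes had a lower value. Aplnr, its G protein-coupled receptor, had 17.3, 17.9 and 21.2 RPKM at day 3, against 8.73, 3.46 and 6.62 RPKM in uninjured muscle, a rise of 1.66 on the log2 scale (standard error 0.31, adjusted p = 0.00133). The receptor varied more between uninjured mice than any other called endothelial member in RPKM, and its change had the opposite sign with ribosomal protein scaling. Its call was also lost with median-of-ratios (0.33) and quantile (0.45) scaling. Receptor RNA outnumbered ligand RNA per length in every library, by 1.87, 2.13 and 1.84 times at day 3 and by 6.54, 5.07 and 6.96 times in uninjured muscle.

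Genes by which venules catch leukocytes were higher at day 3. Sele, E-selectin, is made by activated endothelium, and it had 0.532, 0.832 and 0.637 RPKM at day 3, from 53, 86 and 67 reads, against 0.0159, 0.01 and 0.0443 RPKM in uninjured muscle. Those last values stand for 2, 0 and 5 reads, and the lowest listed value, 0.01, would also be shown for 1 read in a transcript of this length. Sele missed the mean RPKM of 0.5 needed to be tested, and its pooled reads gave a ratio of 33.6 (exact 95% interval 16.0 to 84.7, counting error only). With no filter on low values it was called higher (log2 fold change 2.63, adjusted p = 1.88e-04), as were 38.3% of the 26431 genes then tested. Selp, P-selectin, of endothelial storage granules and of platelets, had 2.55, 2.39 and 2.47 RPKM at day 3, against 0.554, 0.595 and 0.443 RPKM in uninjured muscle. Its log2 fold change was 2.04 (standard error 0.12, adjusted p = 2.39e-06). Selp was not called with median-of-ratios (0.81), quantile (0.28) or ribosomal protein scaling (0.072). Ackr1, a chemokine-binding receptor of venules, had 3.56, 5.71 and 3.11 RPKM at day 3, against 1.54, 1.17 and 1.47 RPKM in uninjured muscle. Its log2 fold change was 1.46 (adjusted p = 5.21e-04), a sign that turned with quantile normalization and ribosomal protein scaling. Ackr1 was not called with median-of-ratios scaling (0.18) either. Among the tested genes, 68.1% had a lower change than Selp and 53.0% a lower one than Ackr1. Platelet genes moved beside Selp: 4 of 5 tested of 8 listed were higher and 1 was lower. Their summed RPKM was 177 to 286 at day 3 and 3.62 to 5.64 in uninjured muscle. Most of the day 3 sum was Pf4 alone, with 172, 184 and 279 RPKM, against 2.38, 1.81 and 3.43 RPKM in uninjured muscle, so the sum mainly follows 1 gene. Gp6 alone was at the lowest listed value in all uninjured libraries. The part of the platelet genes in the Selp result was not tested.

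Among the tested junction and adhesion genes, Icam2 alone was called. Cdh5, VE-cadherin, was the most abundant endothelial member, with 38.1, 33.7 and 37.4 RPKM at day 3, against 32.0, 27.8 and 26.9 RPKM in uninjured muscle. The groups were apart but close, and the log2 fold change of 0.34 (95% interval 0.13 to 0.55) passed the p threshold and not 2-fold. Esam, an adhesion molecule of endothelial contacts, had nearly the same change of 0.33, Cldn5, the claudin of endothelial tight junctions, 0.73, and Pecam1, a contact protein also found on platelets and leukocytes, 0.69, all past the p threshold and all under 2-fold. With ribosomal protein scaling these 4 genes were called lower. Icam2, a ligand of leukocyte integrins that is also expressed by blood cells, had 11.9, 10.95 and 14.4 RPKM at day 3, against 5.32, 3.75 and 4.44 RPKM in uninjured muscle. Its log2 fold change was 1.45 (adjusted p = 4.95e-05), and 52.8% of tested genes had a lower one. Icam2 was not called with median-of-ratios (0.12) or quantile (0.14) scaling, and its sign turned with ribosomal protein scaling. Ocln, occludin, better known from epithelia and the blood-brain barrier, had at most 14 reads in any library and was not tested (25 reads in all at day 3, 26 in uninjured muscle).

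Surface and secreted proteins of endothelium showed a fenestral protein well apart from the rest. Plvap, which forms the diaphragms of fenestrae and caveolae, had 27.6, 25.8 and 29.1 RPKM at day 3, against 6.89, 5.94 and 6.55 RPKM in uninjured muscle. Its log2 fold change was 2.07 (standard error 0.08, adjusted p = 2.93e-07), the only call among 9 genes of this group. Plvap was not called with median-of-ratios (0.74), quantile (0.93) or ribosomal protein scaling (-0.06). Relative to Cdh5 in the same library, Plvap stood at 0.724, 0.765 and 0.778 at day 3, against 0.216, 0.214 and 0.244 in uninjured muscle (difference of log2 ratios 1.74). Gpihbp1, which carries lipoprotein lipase to the capillary lumen, went the other way, with 16.6, 15.2 and 17.4 RPKM at day 3, against 25.0, 26.0 and 22.3 RPKM in uninjured muscle. The change of -0.57 passed the p threshold (adjusted p = 3.83e-04) but not 2-fold, and it was the 1 endothelial member below 0 to do so. Eng, endoglin, a co-receptor for TGF-beta ligands, had 9.37, 9.09 and 10.4 RPKM at day 3, against 4.92, 4.80 and 4.71 RPKM in uninjured muscle. Its change of 0.98 lay just short of 2-fold, and it was called higher when day 3 replicate 2 was left out (1.02). Vwf (von Willebrand factor), Emcn (endomucin), Ramp2 (a partner of the adrenomedullin receptor), Egfl7 (a secreted endothelial protein) and Nos3 (endothelial nitric oxide synthase) had changes of 0.67, 0.60, 0.52, 0.46 and 0.25, each past the p threshold and under 2-fold. Robo4, a guidance receptor of endothelium, had 5.82, 5.18 and 5.69 RPKM at day 3 and 5.24, 5.43 and 5.15 RPKM in uninjured muscle. The groups overlapped, with a change of 0.08 (95% interval -0.10 to 0.25).

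**Figure D4:**
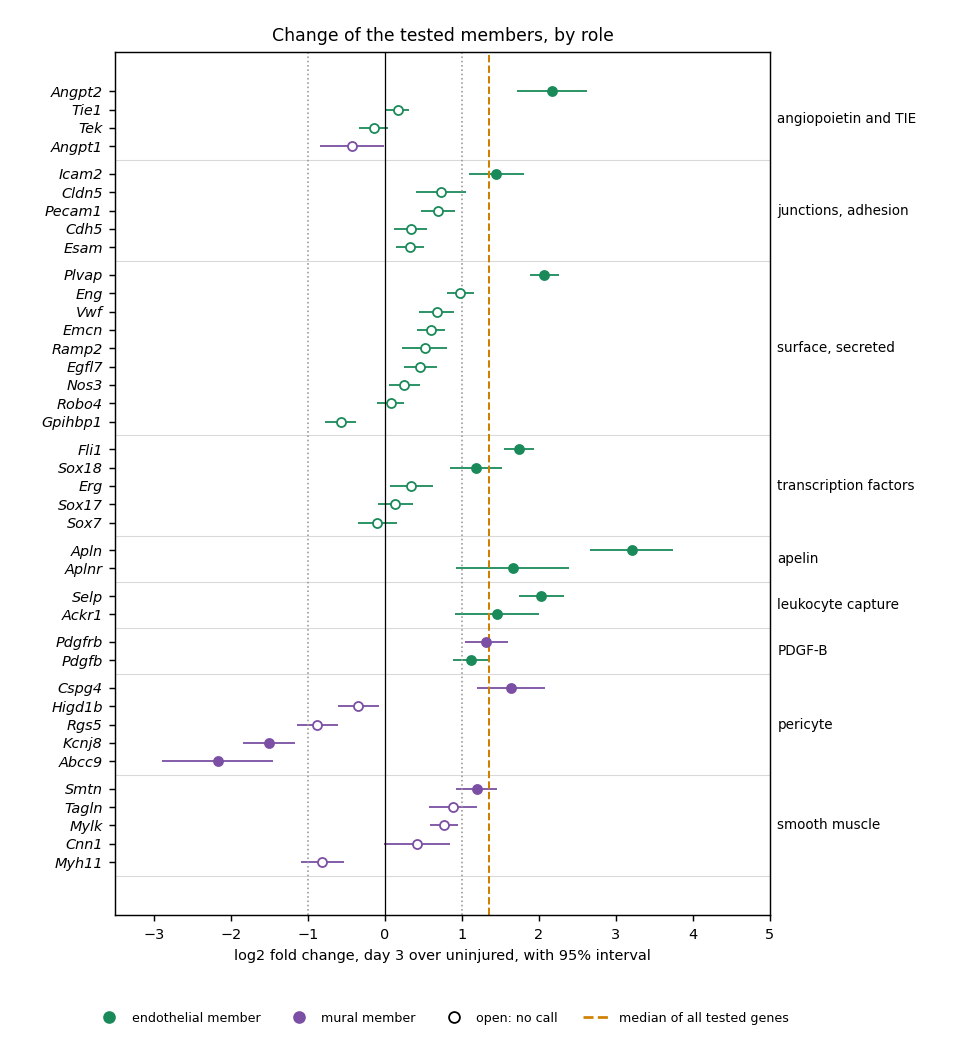
Log2 fold change, day 3 over uninjured, of the 39 tested members with 95% intervals, grouped by role, filled where called and open where not, with dotted lines at 2-fold and a dashed line at 1.35, the median of all tested genes. Apln, Angpt2, Plvap and Selp lie farthest to the right and Abcc9 and Kcnj8 farthest to the left, and 9 of the 39 points lie to the right of the dashed line.

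The transcription factors of endothelium did not move together. Fli1, an ETS factor that blood cells also express, had 12.7, 14.5 and 14.7 RPKM at day 3, against 4.19, 3.93 and 4.17 RPKM in uninjured muscle, a rise of 1.74 on the log2 scale (adjusted p = 5.78e-07, standard error 0.08). Erg, its relative of narrower endothelial use, had 5.47, 4.58 and 4.63 RPKM at day 3, against 4.35, 3.40 and 3.79 RPKM in uninjured muscle, a change of 0.34 that passed the p threshold and not 2-fold. Of the SoxF factors, Sox18 alone was called higher, with 12.8, 11.5 and 14.4 RPKM at day 3, against 6.74, 4.77 and 5.41 RPKM in uninjured muscle (log2 fold change 1.19, adjusted p = 1.09e-04). A lower change than that of Sox18 was seen in 45.1% of tested genes. Sox17 (2.90 to 3.46 RPKM at day 3, 2.74 to 3.05 RPKM in uninjured muscle) and Sox7 (2.38 to 2.69 and 2.46 to 3.04 RPKM) overlapped between the groups, with changes of 0.14 (95% interval -0.09 to 0.36) and -0.10 (95% interval -0.35 to 0.16). The Sox17 to Sox18 ratio was 0.270, 0.278 and 0.201 at day 3, against 0.452, 0.575 and 0.528 in uninjured muscle. Under ribosomal protein scaling Fli1 and Sox18 had the opposite sign, and Sox18 also under quantile and median-of-ratios scaling. Fli1 was not called with median-of-ratios (0.42) or quantile (0.44) scaling, and Sox18 lost its call under each of the 5 other scalings.

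Leukocyte genes moved beside the members that blood cells share. All 8 leukocyte genes were called higher, with a median log2 fold change of 6.53, and their summed RPKM was 3465, 3975 and 4987 at day 3, against 37.5, 22.4 and 33.8 in uninjured muscle, with none at the lowest listed value in all libraries of a group. Their part in the changes of Fli1, Icam2 and Pecam1, or of any other member such as Pdgfb, was not tested. All 8 cell cycle genes were called higher as well, with summed RPKM of 225 to 278 at day 3 and 0.888 to 1.79 in uninjured muscle.

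PDGF-B and its receptor were both higher at day 3, in close proportion, and both rises lay below 1.35, the median of all tested genes. Of the tested genes 43.1% had a lower change than Pdgfb and 49.1% a lower one than Pdgfrb. Pdgfb, the ligand by which endothelium recruits pericytes, had 15.2, 13.7 and 16.1 RPKM at day 3, against 7.03, 6.08 and 7.41 RPKM in uninjured muscle (log2 fold change 1.12, adjusted p = 1.90e-05). Pdgfrb, the receptor on pericytes and fibroblasts, had 11.7, 9.45 and 12.3 RPKM at day 3, against 4.19, 4.85 and 4.14 RPKM in uninjured muscle (log2 fold change 1.32, adjusted p = 2.17e-05). Their ratio was 1.29, 1.45 and 1.31 at day 3 and 1.68, 1.25 and 1.79 in uninjured muscle, the 1 pair whose groups overlapped (difference of log2 ratios -0.20, exact permutation p = 0.4, also 0.4 adjusted). Under ribosomal protein, quantile and median-of-ratios scaling both genes had the opposite sign. With ERCC scaling neither was called (Pdgfb 0.70, Pdgfrb 0.90), and with mitochondrial rows left out Pdgfb was not (0.82).

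The pericyte markers spanned the whole mural range. Abcc9, the sulfonylurea receptor subunit of an ATP-sensitive potassium channel, had 2.53, 2.94 and 1.17 RPKM at day 3, against 9.43, 9.66 and 9.91 RPKM in uninjured muscle. The log2 fold change was -2.17 (adjusted p = 2.69e-04, standard error 0.30), and 2.98% of tested genes had a lower one. Kcnj8, the pore subunit of that channel in mural cells, had 2.83, 3.75 and 2.50 RPKM at day 3, against 8.80, 8.19 and 8.95 RPKM in uninjured muscle, a fold change of -1.50 on the log2 scale (adjusted p = 3.00e-05, standard error 0.14). Uninjured levels of the 2 subunits were nearly equal per length, with a Kcnj8 to Abcc9 ratio of 0.933, 0.848 and 0.904, whereas at day 3 it was 1.12, 1.27 and 2.14. Abcc9 is also a subunit of the channel of muscle fibres. The 8 adult fibre genes, all called lower, summed to 4910, 6874 and 1454 RPKM at day 3, against 39788, 42119 and 43449 RPKM in uninjured muscle, and day 3 replicate 3 was lowest in this sum and in Abcc9, as it was among the day 3 libraries in Kcnj8, Rgs5, Higd1b, Angpt1, Myh11, Tagln, Mylk and Myocd and in the summed mural members. The part of fibre loss in the Abcc9 and Kcnj8 results was not tested. Left out 1 at a time, no library ended either call.

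Rgs5, a regulator of G protein signalling and the most abundant member of all 42, had 49.7, 50.1 and 38.7 RPKM at day 3, against 87.5, 80.3 and 85.0 RPKM in uninjured muscle. The groups were far apart, and the change of -0.88 (95% interval -1.14 to -0.61, adjusted p = 1.53e-04) passed the p threshold but not 2-fold. It was called lower under each of the 5 other scalings. Higd1b, a mitochondrial protein of pericytes, had 1.97, 2.24 and 1.72 RPKM at day 3, against 2.44, 2.52 and 2.61 RPKM in uninjured muscle, a change of -0.34. Cspg4, the NG2 proteoglycan, which other mesenchymal and progenitor cells also carry, had 7.26, 4.30 and 5.92 RPKM at day 3, against 1.64, 1.69 and 1.94 RPKM in uninjured muscle. It was thus called in the direction opposite to the channel genes (log2 fold change 1.64, standard error 0.19, adjusted p = 8.02e-05), with the sign turned by ribosomal protein scaling. Cspg4 was not called with median-of-ratios (0.34) or quantile (0.084) scaling. Fibroblast genes moved beside Cspg4 and Pdgfrb, with 7 of 8 called higher, none at the lowest listed value throughout a group, and summed RPKM of 2363 to 2611 at day 3 and 235 to 371 in uninjured muscle. Their part in these results was not tested.

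Of the 5 tested genes of the smooth muscle contractile apparatus, 1 was called higher, none lower and 4 neither. Over all tested genes 60.5% were called higher and 7.96% lower. Myh11, the smooth muscle myosin heavy chain and the most specific marker of the group, had 2.10, 2.43 and 1.94 RPKM at day 3, against 3.60, 4.32 and 3.66 RPKM in uninjured muscle. The change of -0.81 passed the p threshold (adjusted p = 3.17e-04) but not 2-fold. Tagln, transgelin, an actin-binding protein that fibroblasts and myoblasts can also make, had 32.6, 25.4 and 23.9 RPKM at day 3, against 14.3, 16.1 and 13.5 RPKM in uninjured muscle, a change of 0.89 that also passed the p threshold and not 2-fold. The Tagln to Myh11 ratio was 15.5, 10.5 and 12.3 at day 3, against 3.97, 3.74 and 3.69 in uninjured muscle, a difference of log2 ratios of 1.70. Smtn, smoothelin, had 21.6, 16.1 and 19.8 RPKM at day 3, against 8.34, 7.95 and 8.53 RPKM in uninjured muscle, and was the 1 gene of the group called higher (log2 fold change 1.19, adjusted p = 2.70e-05), a sign turned by median-of-ratios and ribosomal protein scaling. A lower change than that of Smtn was seen in 45.2% of tested genes. Smtn lost its call under each of the 5 other scalings. Mylk, myosin light chain kinase, had a change of 0.77 past the p threshold and under 2-fold. Cnn1, calponin, had 0.809, 1.13 and 0.878 RPKM at day 3 and 0.654, 0.824 and 0.559 RPKM in uninjured muscle, where the groups overlapped and the change of 0.42 did not pass (adjusted p = 0.0586). Myocd, myocardin, the coactivator that drives this programme, had at most 13 reads in a library and was not tested.

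The endothelial and mural members were also compared within each library. The median of log2(RPKM + 0.1) over the tested endothelial members exceeded that over the tested mural members by 0.94, 1.16 and 1.52 at day 3, against 0.32, 0.06 and 0.27 in uninjured muscle. These differences are taken within a library, and the groups did not overlap. Under the 6 scalings the endothelial median log2 fold change exceeded the mural one by 0.49 to 1.03. The 4 scalings by a factor could hardly move this difference, and it was 1.03 with quantile normalization. When libraries were left out 1 at a time it was 0.53 to 0.68. Rgs5 relative to Pecam1 was 2.28, 2.36 and 1.72 at day 3, against 5.71, 6.12 and 7.03 in uninjured muscle. Myh11 relative to Pecam1 was 0.0965, 0.114 and 0.0865 at day 3, against 0.235, 0.329 and 0.303 in uninjured muscle. The 2 pairs differed by similar steps, with differences of log2 ratios of -1.57 and -1.51. Both share Pecam1, a protein also found on platelets and leukocytes, so they are not independent of each other. The part of those cells in these ratios was not tested. The summed RPKM of all endothelial members was 313, 307 and 335 at day 3 and 216, 185 and 187 in uninjured muscle, and that of all mural members was 143, 127 and 118 at day 3 and 149, 143 and 147 in uninjured muscle.

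In further lists of vessel genes, which hold no member, the order of the medians was the other way round, 0.41 for the endothelial and 0.79 for the mural list, so the difference between the endothelial and mural members was not seen there. Of 32 other endothelial genes 31 were tested, with 11 called higher, 4 lower and 16 neither. Over all tested genes 60.5% were called higher and 7.96% lower. The log2 fold changes named next kept their sign under all 6 scalings except that of Flt4. The largest rises were those of Vcam1 (4.27) and Icam1 (3.92), adhesion molecules of inflamed endothelium that other cells also make, and the largest falls those of Car4 (-2.26), a carbonic anhydrase of capillaries, and Tcf15 (-1.97), a transcription factor of capillary endothelium in muscle and fat. Of the VEGF receptors, Flt1 was called lower (-1.13), while Kdr, at 8.59, 8.17 and 9.45 RPKM at day 3 and 13.3, 12.6 and 13.6 RPKM in uninjured muscle, passed the p threshold at -0.59 and not 2-fold. Of 30 other mural or contractile genes, all tested, 12 were called higher, 4 lower and 14 neither, against the same shares over all tested genes. Acta2, the smooth muscle actin, had 200.1, 105 and 137 RPKM at day 3, against 16.3, 18.0 and 16.9 RPKM in uninjured muscle (log2 fold change 3.06, standard error 0.21). With ribosomal protein scaling it came to 0.91 and was not called. Anpep (4.20), an aminopeptidase that pericytes and myeloid cells make, and Flna (3.37), an actin cross-linker of many cells, rose most, whereas Tpm1 (-3.36) and Synm (-3.30) fell most, both of which muscle fibres also express. Of 7 lymphatic genes 4 were tested, and Pdpn (4.19), Prox1 (2.56) and Lyve1 (2.51) were called higher, the last 2 not so under quantile and ribosomal protein scaling. Pdpn and Lyve1 are also made by fibroblasts and macrophages. Flt4, the lymphatic VEGF receptor, had a change of 0.33 and was not called, and came to -1.67 at the lowest of the 6.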

How the data were processed

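Total RNA of 1 TA muscle (1 μg) went into each library, and single reads of 50 bp were sequenced. The authors used BWA against RefSeq transcripts of the mouse and deposited the result as RPKM, 1 row per transcript. The submitters' processing notes also name CASAVA 1.4 and SAMtools 0.1.19. The handling of reads with several matching transcripts is not given in the sources used here, and the transcripts listed for 1 member gene had mean RPKM within 1.24 times of each other, so isoforms such as those of Abcc9 were not separated. The length of each transcript, another deposited value of the table, allowed reads to be recovered: values above 0.01 came to whole reads in 100% of cases (tolerance 0.01 read), and tested members held 43 to 6818 reads in a library. The 96 rows that name no gene (92 ERCC spike-ins, the mitochondrial chromosome and 3 contaminant sequences) stayed out of the tests.

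The transcript with the highest mean RPKM stood for each gene. limma 3.58.1 (R 4.3.3; lmFit, eBayes with trend) was fitted to log2(RPKM + 0.1) of 14446 genes whose mean RPKM was 0.5 or more, and the script was tested on simulated data. Pairs were tested with an exact permutation test (Python 3.11.15, SciPy 1.17.1, pandas 2.3.3, NumPy 2.4.6, matplotlib 3.10.9). Alternatives varied the pseudocount (0.01, 1), the filter (none, or a mean of 2 RPKM), the scaling, the trend, the replicate block, the transcript rule and the libraries. The members and lists were chosen with earlier results of these data known. All members were named, and of the further endothelial and mural lists the 2 highest and the 2 lowest changes, with Kdr, Flt1 and Acta2, and the 4 tested lymphatic genes. Lists of other cell types are given by counts and sums, with Gp6 named for its listed level and Pf4 for its share of a sum. No table column held a sample of another series.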

Additional observations from a re-analysis of the deposited data

How the results depend on the processing

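Under pseudocounts of 0.01 and 1, no filter, no trend and summed transcripts the calls of the tested members were the same, apart from Sele, which no filter added. No filter did move the background: the median of all genes was 0.53, against 1.35, and the endothelial median minus it was 0.14, against -0.68. With a minimum mean of 2 RPKM fewer members were tested, 9 endothelial members were called higher and the mural median was -0.34, against 0.04. Same-numbered mice were not paired: the correlations of their deviations were -0.06, 0.09 and 0.02, and the replicate block left 10 higher and 0 lower endothelial and 3 higher and 2 lower mural calls. Leaving out 1 library gave 10 to 11 higher and 0 lower endothelial and 3 higher and 2 lower mural calls, medians of 0.61 to 0.70 (endothelial) and -0.07 to 0.10 (mural). With a pseudocount of 1, 5 pair differences moved by more than 1 SD, all keeping their direction.

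Scaling changed the counts. The higher and lower endothelial calls were 1 and 9 with median-of-ratios, 1 and 8 with quantile and 1 and 18 with ribosomal protein scaling, and 8 and 0 with ERCC scaling and with mitochondrial rows left out. The higher and lower mural calls were 0 and 6 (median of ratios), 0 and 7 (quantile), 0 and 9 (ribosomal protein), 1 and 4 (ERCC) and 2 and 4 (mitochondrial rows left out). Over all genes, higher and lower calls were 8740 and 1150 as deposited, 3802 and 3254 (median of ratios), 3460 and 3561 (quantile), 2316 and 5994 (ribosomal protein), 6952 and 1597 (ERCC) and 7478 and 1467 (mitochondrial rows left out). The endothelial median was -0.64 (median of ratios), -0.58 (quantile), -1.44 (ribosomal protein), 0.25 (ERCC) and 0.38 (mitochondrial rows left out), and the mural median -1.20, -1.61, -1.93, -0.36 and -0.24. The 4 scalings by a factor multiply day 3 libraries by less than uninjured ones, so a lower call could hardly be lost under them.

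Members called as deposited or under the alternative, and with opposite signs in both, had these log2 fold changes. With median-of-ratios scaling they were Pdgfrb -0.0011, Sox18 -0.14, Smtn -0.14, Pdgfb -0.21, Cdh5 -1.0, Esam -1.01, Nos3 -1.06, Sox17 -1.16, Tie1 -1.17 and Robo4 -1.24. With quantile normalization they were Pdgfrb -0.012, Sox18 -0.087, Pdgfb -0.11, Ackr1 -0.17, Tie1 -1.01, Erg -1.14, Nos3 -1.24, Robo4 -1.35, Sox17 -1.44 and Cnn1 -1.53. With ribosomal protein scaling they were Plvap -0.060, Fli1 -0.38, Cspg4 -0.44, Aplnr -0.47, Ackr1 -0.60, Icam2 -0.67, Pdgfrb -0.80, Sox18 -0.93, Smtn -0.94, Pdgfb -1.01, Eng -1.14, Tagln -1.25, Mylk -1.34, Cldn5 -1.40, Vwf -1.43, Pecam1 -1.44, Cnn1 -1.48, Emcn -1.51, Ramp2 -1.62, Egfl7 -1.66, Erg -1.76, Cdh5 -1.81, Esam -1.81, Nos3 -1.85, Sox17 -1.94, Tie1 -1.97 and Robo4 -2.03. The median of all genes was shifted as well, to 0.06, -0.07 and -0.71.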
